A study of Mus musculus with 12 samples.

Results

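The genes described here are those of glucose breakdown and of the cellular response to low oxygen, in mouse leukaemia and peritoneal cells. They were chosen by name, but with earlier results of these data known, which limits what their shares beside all genes can show. In all, 35 gene symbols were sought among the symbols of an Illumina mouse bead array. Among them 34 were found, on 61 of its 45281 probes. Of these, 28 genes had a probe detected above background on at least 2 of 12 arrays (detection p-value under 0.05), among 13190 genes tested in all. Hk2, the inducible hexokinase, was not among the symbols matched and is not analysed here. The counts below are over the 28 genes that passed this filter, not over all 35, and they describe the group without testing it.

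The study compared leukaemic cells of TCL1 mice by tissue and by binding to PtC (phosphatidylcholine), a membrane lipid and self antigen that many B-1 cells bind. TCL1 is an oncogene that, expressed in B cells, gives mice a disease resembling human chronic lymphocytic leukaemia (CLL), and the labels state that disease for every sample, wild type included. The genotypes were wild type, young TCL1 and TCL1-192, all on a mixed C3H and C57BL/6 background. TCL1-192 cells gave 2 arrays for each of 4 groups: PtC+ peritoneum, PtC- peritoneum, PtC+ spleen and PtC- spleen. The wild type and the young TCL1 peritoneum each contributed 1 array of PtC+ cells and 1 of PtC- cells. The sources used here do not say what the number in TCL1-192 stands for, whether those cells come from 1 clone or how they were kept. They also do not give the promoter that drives TCL1, the ages of the mice or the sorting gates, nor whether replicate arrays came from separate animals. Whether PtC+ and PtC- arrays with the same replicate number share a sample is not stated either. P-values therefore measure the spread between these arrays, which may be technical. For the groups with a single array, the spread was taken from the TCL1-192 replicates.

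Glycolysis turns glucose into pyruvate: transporters bring glucose in, hexokinase and phosphofructokinase commit it, aldolase splits it, and later enzymes harvest ATP before lactate dehydrogenase converts pyruvate to lactate. When oxygen falls, prolyl hydroxylases such as Egln1 and Egln3 stop marking the HIF-1alpha protein (from Hif1a) for destruction, and HIF raises transcription of glucose transporters, most glycolytic enzymes, Pdk1, which keeps pyruvate out of the mitochondria, and genes that slow growth or remove mitochondria. The protein, not the mRNA of Hif1a, is the main point of control, and MYC and growth signals also raise many glycolytic genes.

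The PtC- peritoneal TCL1-192 array of replicate 2 stood apart, with 10711 probes detected at a median signal of 219 against 13825 to 15192 probes at 99.4 to 121 on the others. The number of arrays limits the precision. The B cell markers Cd79b, Ms4a1, Cd22 and Blk were detected on all 12 arrays, and the probe for Pax5 was detected on none. As linear normalized signal, 6 B cell markers summed to 44270 and 45010 in wild type and to 46970 and 47010 in young TCL1. The sum was 31460 to 40500 in TCL1-192 peritoneum and 35210 to 43870 in TCL1-192 spleen. Cells of other types also left a trace. The summed level of 18 macrophage markers, as linear normalized signal, was 53040 and 69400 in wild type, 50230 and 55860 in young TCL1, 25360 to 48650 in TCL1-192 peritoneum and 1784 to 2001 in TCL1-192 spleen, where Lyz2, Csf1r, C1qa, C1qb and C1qc were undetected on all 4 arrays. Lyz, Cd68 and Mrc1 were detected on all 4 spleen arrays. The summed level of 10 erythroid markers was 326 and 438 in wild type, 653 and 2750 in young TCL1, 19720 to 33600 in TCL1-192 peritoneum and 1283 to 2007 in its spleen. Markers of proliferation (10 genes) summed to 585 and 702 in wild type, 486 and 3278 in young TCL1, 6125 to 9626 in TCL1-192 peritoneum and 8068 to 13810 in TCL1-192 spleen. Fewer cells of a type and less RNA per cell cannot be told apart in such bulk samples. The remaining marker lists had summed levels of 190 to 2604 for mast cells and basophils, high in wild type and young TCL1 only, 7885 to 11580 for T cells, 117 to 483 for NK cells, 141 to 498 for neutrophils, 89.6 to 150 for platelets and 188 to 534 for stroma and mesothelium. All sums include undetected probes. An array detected 2 to 6 of 9 T cell, 0 to 2 of 4 NK cell and 0 to 4 of 5 neutrophil markers. For platelets it was 0 to 1 of 3, and for stroma and mesothelium 0 to 1 of 7. Of the T cell markers, Cd8a and Trat1 were detected on no array and Cd3e on no TCL1-192 array. On the TCL1-192 arrays of replicate 2 from PtC- peritoneum, PtC+ spleen and PtC- spleen, Cd2 and Lck alone were detected. The T cell sums there were still 7885, 8917 and 11580, so they rest on these genes and not on the Cd3 genes.

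**Figure D1:**
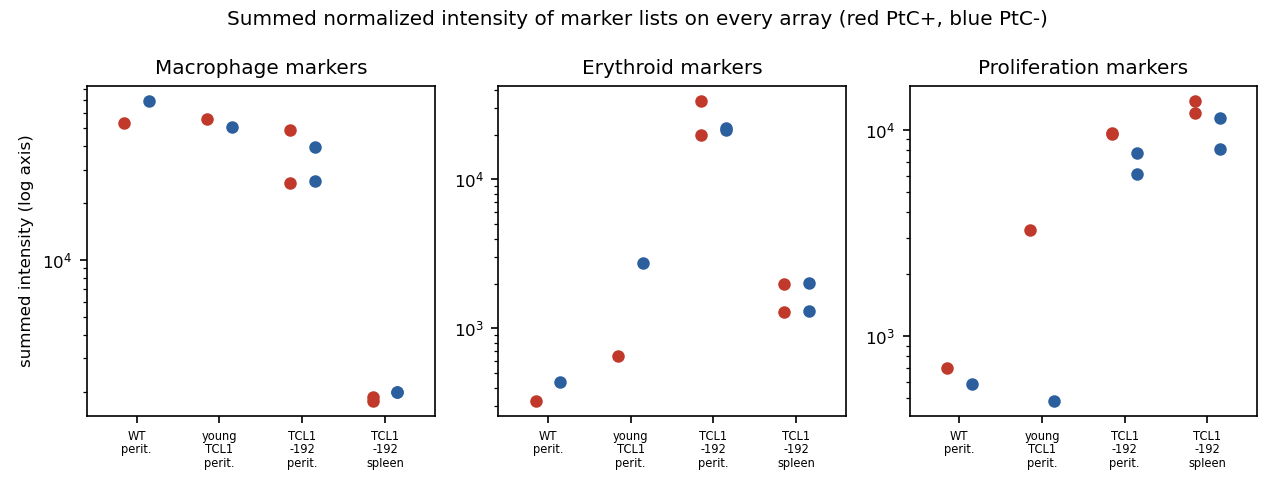
Summed normalized signal (linear scale on a log axis) of the macrophage, erythroid and proliferation marker lists, with 1 point per array (red PtC+, blue PtC-) and the groups of genotype and tissue along the x axis. Macrophage markers lie at 1784 to 2001 in TCL1-192 spleen and at 25360 or more elsewhere, and erythroid markers are highest in TCL1-192 peritoneum.

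HIF binds DNA at a short core, ACGTG or GCGTG, and the promoters of these genes were searched for it. RefSeq promoter windows (GRCm38.p6, 250 bases before to 50 after a gene's start) were found for 32 of the 35 genes, and for all but Slc2a3, Bnip3l and Ndrg1. Either core, on either strand, stood in a window of 29 of the 32 genes (90.6%), against 12628 of 27025 genes in the table (46.7%). Counted by windows of 300 bases, 35 of 43 (81.4%) held a core, against 43.8% of all 32851. The E-box CACGTG, whose both strands contain ACGTG and which MYC also binds, stood in 4 of the 32 genes (12.5%) and in 8.09% of all genes. A core was in 9 of 10 genes that were lower in spleen (below) and in 12 of 14 that were not called there. With a core in 29 of the 32 genes, the match could hardly have separated them, and no conclusion is drawn. A match of so few letters is a description of the sequence and not a binding site. The windows below belong to Ddit4, Adm and Pdk1, the 3 genes with the largest differences between tissues, and to Ankrd37 and Ldha, called genes whose windows held 4 and 7 core matches, with E-boxes in that of Ldha. Pdk1 and Ldha had 2 windows each, and the one with most core matches is shown. Of the 2 Pdk1 windows, 1 held a core. Capitals mark the core on either strand, so that GCGTG on the other strand reads CACGC and ACGTG reads CACGT, and neighbouring matches run together.
Pdk1 promoter, chr2:71872974-71873273, plus strand: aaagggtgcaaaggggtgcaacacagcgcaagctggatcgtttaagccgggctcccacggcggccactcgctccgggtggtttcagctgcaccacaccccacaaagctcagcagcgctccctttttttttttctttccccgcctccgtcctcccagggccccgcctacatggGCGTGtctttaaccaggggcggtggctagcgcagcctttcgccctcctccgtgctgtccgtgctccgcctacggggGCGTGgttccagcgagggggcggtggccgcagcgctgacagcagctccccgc
Ddit4 promoter, chr10:59951721-59952020, minus strand: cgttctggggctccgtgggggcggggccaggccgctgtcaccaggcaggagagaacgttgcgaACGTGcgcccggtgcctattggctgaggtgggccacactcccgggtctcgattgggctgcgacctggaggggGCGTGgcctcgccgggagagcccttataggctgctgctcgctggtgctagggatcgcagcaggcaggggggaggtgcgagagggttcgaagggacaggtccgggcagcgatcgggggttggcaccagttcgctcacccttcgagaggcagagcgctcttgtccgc
Ankrd37 promoter, chr8:45999801-46000100, minus strand: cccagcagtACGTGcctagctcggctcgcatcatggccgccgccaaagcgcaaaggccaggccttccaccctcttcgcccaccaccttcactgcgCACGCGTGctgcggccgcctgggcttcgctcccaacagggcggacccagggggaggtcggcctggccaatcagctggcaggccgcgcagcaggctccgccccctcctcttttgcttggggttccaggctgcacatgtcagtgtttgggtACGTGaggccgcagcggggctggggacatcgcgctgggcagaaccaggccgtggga
Ldha promoter, chr7:46845554-46845853, plus strand: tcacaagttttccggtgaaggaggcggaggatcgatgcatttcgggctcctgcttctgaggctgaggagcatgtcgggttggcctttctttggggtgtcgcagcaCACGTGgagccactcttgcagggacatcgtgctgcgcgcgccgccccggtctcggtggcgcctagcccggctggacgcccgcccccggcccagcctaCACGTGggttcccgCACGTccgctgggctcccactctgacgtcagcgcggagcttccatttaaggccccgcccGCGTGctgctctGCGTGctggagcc
Adm promoter, chr7:110627407-110627706, plus strand: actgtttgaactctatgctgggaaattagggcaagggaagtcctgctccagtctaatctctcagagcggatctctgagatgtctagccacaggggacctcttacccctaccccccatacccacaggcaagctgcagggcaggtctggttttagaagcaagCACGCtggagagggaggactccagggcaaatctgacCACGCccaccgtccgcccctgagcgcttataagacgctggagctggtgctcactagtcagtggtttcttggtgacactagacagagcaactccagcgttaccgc

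The first comparison was between tissues, which the series' design text names together with responsiveness to self antigen. In TCL1-192 cells, 13 of the 28 genes were lower in spleen than in peritoneum and 1 was higher, and 14 were not called (limma, Benjamini-Hochberg adjusted p under 0.05, 4 against 4 arrays). The lower share of 46.4% compares with 11.1% of all 13190 genes tested, the higher share of 3.57% with 15.5%, and any call (50%) with 26.7%. The median log2 difference was -0.52 for the 28 genes and -0.02 for all genes. Lower genes included Aldoc, Tpi1, Pgk1, Pgam1, Eno1 and Ldha, which act between the splitting of the sugar and lactate (Aldoa, Gapdh, Eno2 and Pkm2 of the same stretch were not called), and with them Pdk1 and the stress genes Ddit4, Ankrd37 and Bnip3l. In the other direction went Adm, which encodes the vasodilator peptide adrenomedullin. With each array centred on its median in place of quantile normalization, the median of all genes moved to 0.24, all genes split into 2689 higher and 350 lower (2051 and 1465 before), and 7 of the 28 genes were lower and 2 higher. No gene called in any comparison turned direction under the other scalings tried.

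**Figure D2:**
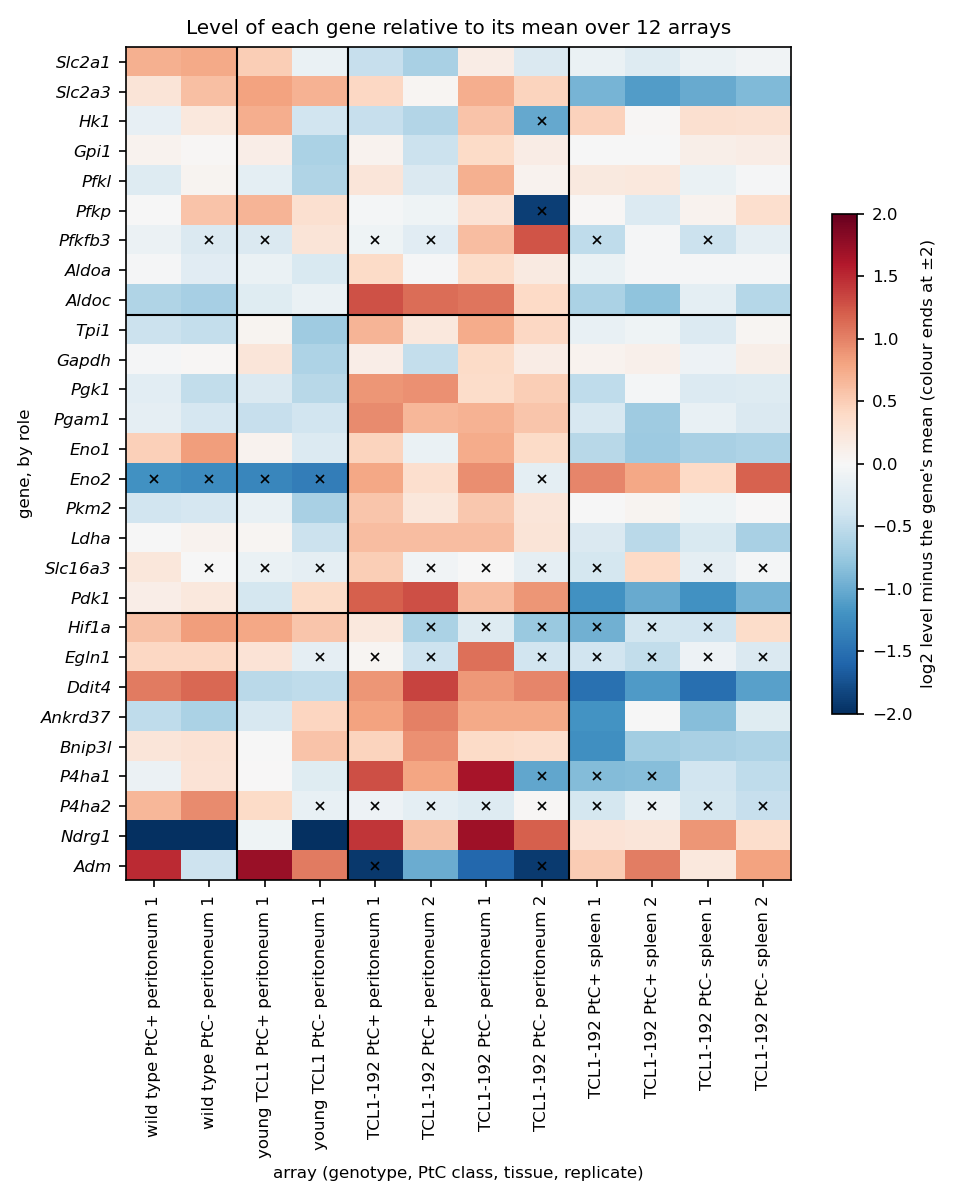
Log2 normalized level of the 28 tested genes on each of the 12 arrays, each gene shown as its difference from its own mean over the arrays and grouped by role, with crosses where the probe was undetected. Levels of Pdk1, Ddit4, Slc2a3 and Bnip3l are lowest in the 4 spleen columns, and Adm is lowest in the TCL1-192 peritoneal columns.

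Levels are log2 normalized signals, each from 1 probe, and they are compared between arrays for a gene and never between genes. The uptake of glucose was represented by Slc2a1 and Slc2a3, which encode the transporters GLUT1 and GLUT3. Slc2a3 lay at 8.75 and 8.37 on the PtC+ and at 9.06 and 8.77 on the PtC- peritoneal TCL1-192 arrays. On the spleen arrays it lay at 7.41 and 7.21 (PtC+) and at 7.32 and 7.45 (PtC-). All spleen levels were below all peritoneal ones, including wild type (8.59 and 8.93) and young TCL1 (9.14 and 9.03), and the tissue difference was -1.39 ± 0.15 (standard error of the log2 difference, as throughout), 2.61-fold lower, with an adjusted p of 0.00127. Slc2a1 was at 10.16, 9.98, 10.77 and 10.34 in peritoneum and at 10.51, 10.38, 10.50 and 10.56 in spleen. Its ranges overlapped, and the difference of 0.17 ± 0.15 was not called (adjusted p = 0.424).

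Aldoc, the brain-type aldolase, lay at 8.46, 8.31, 8.27 and 7.58 in TCL1-192 peritoneum and at 6.55, 6.38, 6.99 and 6.62 in spleen. The groups did not overlap, the difference was -1.52 ± 0.19 (2.86-fold lower, adjusted p = 0.0021), and the spleen levels were near those of wild type peritoneum (6.59 and 6.53), a pair of groups that was not compared. Aldoa, the aldolase found in most cells, lay within 11.98 to 12.51 on the 8 TCL1-192 arrays and was not called (-0.28 ± 0.14, adjusted p = 0.199). Pfkfb3, which makes the activator of phosphofructokinase, was called lower (-0.67 ± 0.20, adjusted p = 0.0428), but it was detected on 2 of 4 arrays of each tissue, the groups overlapped, and the call ended in 13 of 19 alternatives. Hexokinase Hk1 (0.65 ± 0.33), glucose phosphate isomerase Gpi1 (0.03 ± 0.15) and the phosphofructokinases Pfkl (-0.12 ± 0.20) and Pfkp (0.46 ± 0.43) were not called. Pfkl turned direction under median centring.

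Below aldolase, 4 genes of the trunk of the pathway were lower in spleen. Pgam1, phosphoglycerate mutase, lay at 9.34, 9.06, 9.09 and 8.96 in peritoneum and at 8.08, 7.68, 8.25 and 8.11 in spleen (-1.08 ± 0.15, 2.12-fold lower, adjusted p = 0.00307). Pgk1, phosphoglycerate kinase, was 1.91-fold lower (-0.93 ± 0.15, adjusted p = 0.00481), from 10.94 to 11.47 in peritoneum and from 10.05 to 10.53 in spleen. Neither pair of ranges overlapped. A second Pgam1 probe, detected on 5 arrays, gave -0.44 ± 0.24. Eno1, the common enolase, fell by 1.00 on the log2 scale (SE 0.17, adjusted p = 0.00706), and Tpi1, triosephosphate isomerase, by 0.63 (SE 0.17, adjusted p = 0.0326). All 4 calls ended under median centring, at adjusted p of 0.162 for Pgk1, 0.163 for Pgam1, 0.106 for Eno1 and 0.361 for Tpi1. The Tpi1 call also ended, at adjusted p of 0.0675 to 0.122, without the PtC+ peritoneal array of replicate 1 or without any 1 of the 4 spleen arrays. Gapdh, often used as a reference gene (0.00 ± 0.17, adjusted p = 0.999), and Eno2, the neuronal enolase (0.37 ± 0.29), were not called.

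At the end of the pathway, Ldha, which makes lactate, lay at 13.26, 13.27, 13.27 and 12.91 in peritoneum. In spleen it lay at 12.36, 12.11, 12.34 and 12.004. Every spleen level was below every peritoneal level, and the difference of -0.98 ± 0.15 (1.97-fold lower) had an adjusted p of 0.00497, or 0.0706 with median centring. Pkm2, pyruvate kinase (now Pkm), also showed groups that did not overlap, but its difference of -0.40 ± 0.14 missed the threshold (adjusted p = 0.0835), and a second Pkm2 probe gave -0.80 ± 0.15. The lactate exporter Slc16a3 was detected on 1 array of each tissue. Probe sequences were not used here, and glycolytic genes such as Gapdh have many near-identical processed copies, so their signal may not come from 1 gene alone.

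Pdk1, the kinase that shuts pyruvate dehydrogenase, showed the clearest separation of any enzyme. It lay at 9.38, 9.48, 8.80 and 9.07 in TCL1-192 peritoneum and at 6.96, 7.17, 6.97 and 7.26 in spleen. The lowest peritoneal level was more than 1 log2 unit above the highest spleen level, and the wild type (8.32 and 8.39) and young TCL1 (7.83 and 8.56) levels lay between them. The difference was -2.09 ± 0.14 (4.26-fold lower, adjusted p = 0.00025) and stayed called in all 19 alternatives, at -2.36 to -1.49.

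**Figure D3:**
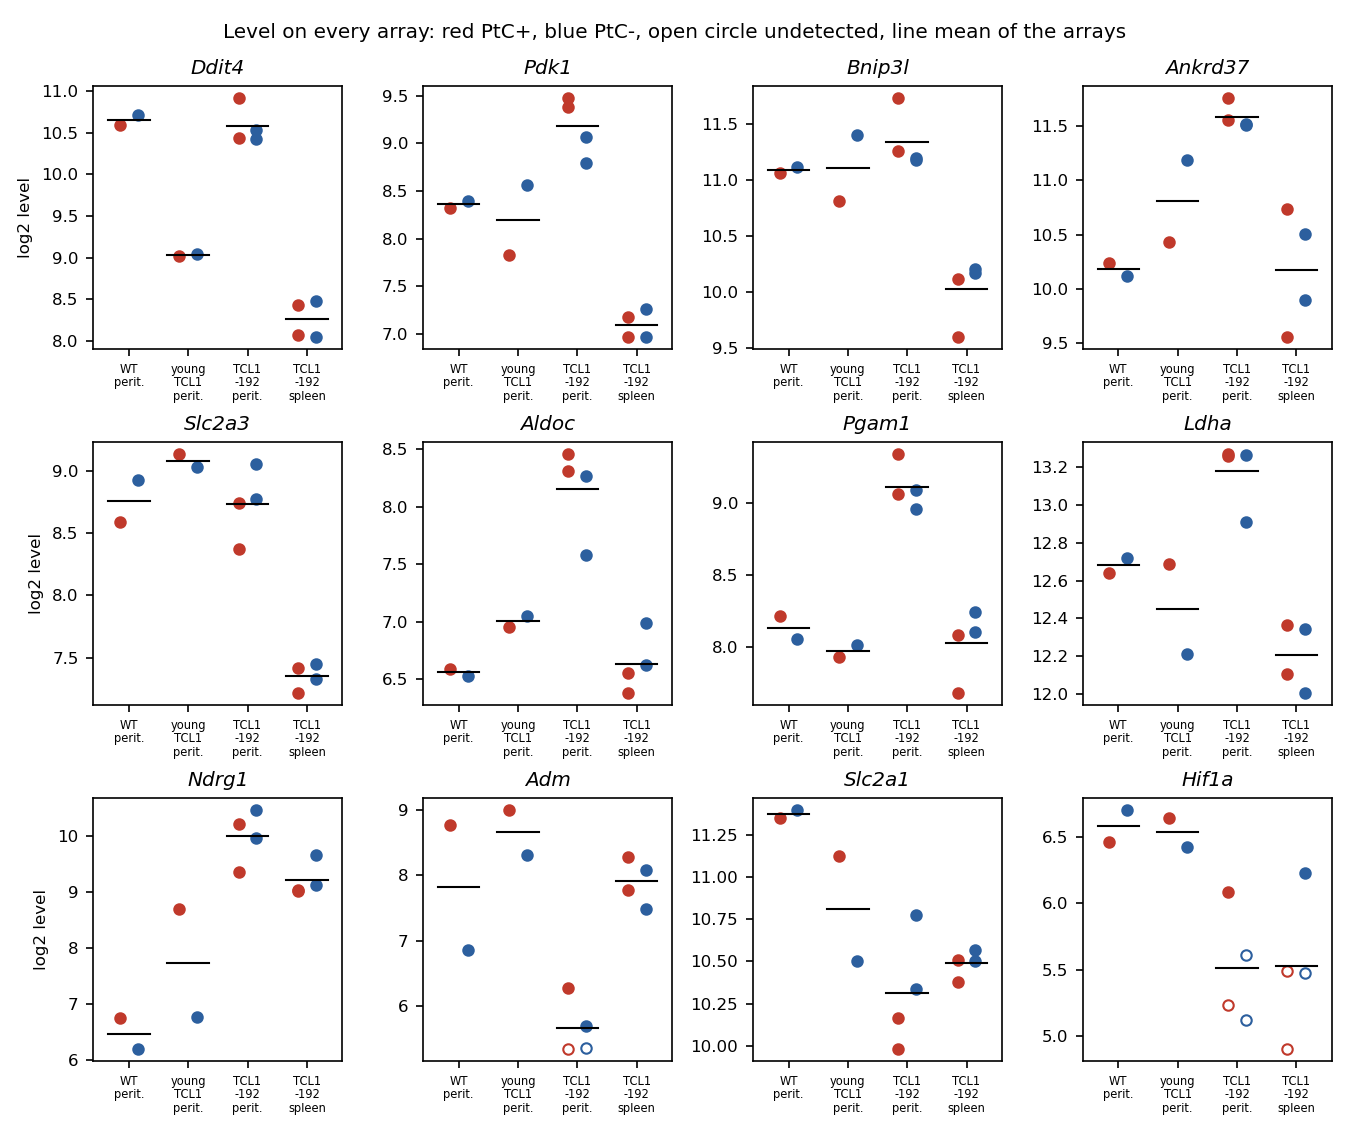
Log2 normalized level of selected glycolysis and hypoxia genes by genotype and tissue, with 1 point per array, red for PtC+ and blue for PtC- cells, open circles where undetected and lines at the mean of the arrays. Pdk1, Ddit4 and Slc2a3 are lower on all 4 spleen arrays than on every peritoneal array of TCL1-192, and Adm is the reverse.

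Among the stress and hypoxia genes, Ddit4, an inhibitor of mTORC1 signalling also known as REDD1, showed the largest fall. Its peritoneal levels were 10.44, 10.92, 10.43 and 10.54, and its spleen levels 8.07, 8.43, 8.05 and 8.47. No level overlapped, and spleen was 5.01-fold lower (-2.33 ± 0.18, adjusted p = 0.000373), with the call kept in all 19 alternatives. Ankrd37, an ankyrin repeat protein and known HIF target, lay at 11.55, 11.76, 11.52 and 11.51 against 9.56, 10.74, 9.90 and 10.50 (-1.41 ± 0.28, adjusted p = 0.0106), and its spleen replicates were spread by over 1 unit in PtC+ cells. Bnip3l, a mitochondrial receptor for mitophagy that also clears mitochondria from maturing red cells, lay at 11.26, 11.73, 11.20 and 11.18 against 9.60, 10.12, 10.17 and 10.21 (-1.32 ± 0.17, adjusted p = 0.00261). These 2 genes did not overlap between tissues either.

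Ndrg1, a stress-induced gene, lay at 10.21, 9.36, 10.46 and 9.96 in peritoneum and at 9.04, 9.02, 9.66 and 9.12 in spleen, with overlap. Its difference of -0.79 ± 0.24 was just past the threshold (adjusted p = 0.0487). The call ended in 10 of 19 alternatives, among them leaving out the PtC+ peritoneal array of replicate 1 or any 1 of the 4 spleen arrays (adjusted p of 0.075 to 0.165). P4ha1, a collagen prolyl hydroxylase, differed by -1.32 ± 0.52 and was not called (adjusted p = 0.107). Its PtC- peritoneal replicates lay at 7.96 and, undetected on the array that stood apart, 5.28.

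Adm ran against the rest. It was undetected on 2 of the 4 peritoneal TCL1-192 arrays (5.35 and 5.36) and at 6.28 and 5.69 on the other two, while the spleen arrays gave 7.77, 8.29, 7.48 and 8.08. All spleen levels were higher, by 2.23 ± 0.26 (4.71-fold, adjusted p = 0.00167), and the call was kept in all 19 alternatives. The regulators themselves were dim: Hif1a was detected on 1 peritoneal array (6.08) and 1 spleen array (6.23) among levels of 4.91 to 6.23 on the 8, a difference of 0.01 ± 0.28 (adjusted p = 0.975) that turned direction under normexp background correction. Egln1 was detected on 1 of these 8 arrays and P4ha2 on none.

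Of the 13 genes that were lower in spleen, 11 had groups that did not overlap, beside Pkm2, which was not called, and the same absence of overlap was found for 12.7% of all genes in that direction. Adm was the 1 gene whose spleen levels all lay above, as for 16.9% of all genes. Macrophage and erythroid markers moved the same way as these genes: 12 of 16 tested macrophage markers and 3 of 4 tested erythroid markers were lower in spleen and none was higher. The 12 include the lysozyme entries Lyz2, Lyzs and Lyz, which may not be separate genes. Cd3d and Lck of the T cell list and Dcn of stroma were also lower, and S100a8 and S100a9 of neutrophils higher. Of 9 tested proliferation markers, Mki67 (2.27 ± 0.22) and Nusap1 (0.57 ± 0.15) were higher and none was lower. Their part in the result was not tested. Within PtC+ arrays alone 10 of the 28 genes were called (9 lower), beside 21.9% of all genes in either direction, and within PtC- arrays alone 6 (5 lower), beside 6.54%. Slc2a3, Pdk1, Ddit4 and Adm were called in both classes. Without the PtC- peritoneal array that stood apart, 16 were called (15 lower), beside 29.9% of all genes, and without its replicate 18 (14 lower), beside 45.1%.

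**Figure D4:**
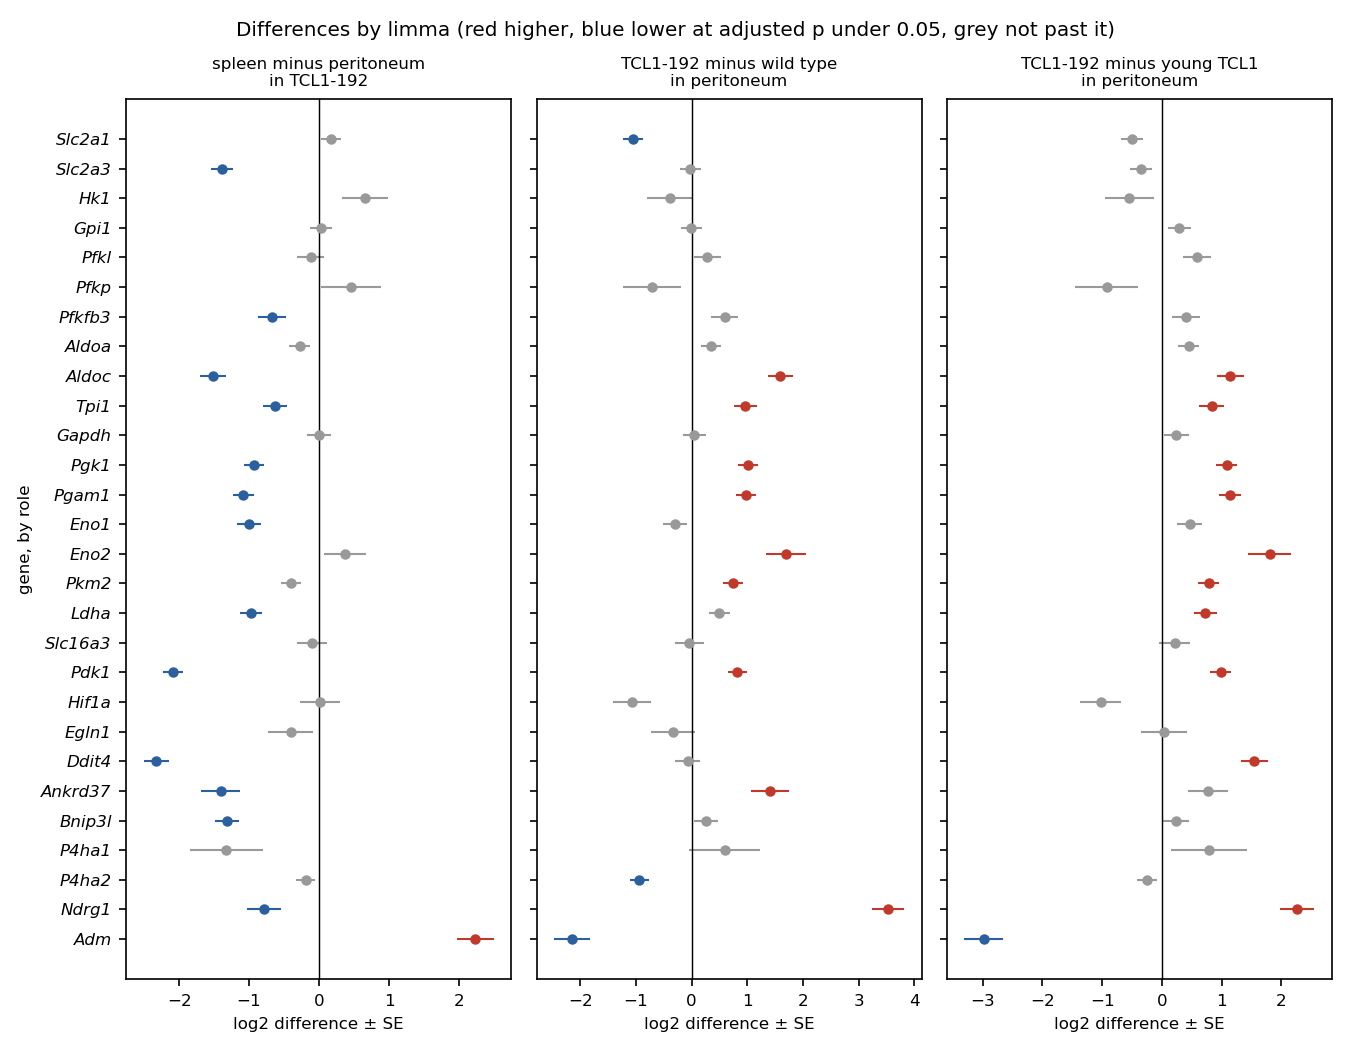
Log2 difference with its standard error for each of the 28 genes in the tissue comparison and in the comparisons of TCL1-192 with wild type and with young TCL1 peritoneal cells, coloured red (higher) or blue (lower) where the adjusted p was under 0.05 and grey otherwise. In the tissue comparison 13 blue points lie below 0 and 1 red point, Adm, above it.

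The second comparison set TCL1-192 against wild type cells of the peritoneum (4 against 2 arrays). Here 9 of the 28 genes were higher in the leukaemic cells and 3 lower, shares of 32.1% and 10.7% against 11.8% and 15.6% of all genes, with any call at 42.9% against 27.4%. The median was 0.27 for the 28 genes and 0.03 for all. Groups did not overlap for 12 genes upward and 4 downward, against 19.8% and 23.4% of all genes. The genes that were higher were the glycolytic Aldoc, Tpi1, Pgk1, Pgam1, Eno2 and Pkm2 with Pdk1, Ankrd37 and Ndrg1, and those that were lower were Slc2a1, P4ha2 and Adm. With median centring the median of all genes moved to -0.23, all genes split into 499 higher and 2309 lower (1561 and 2052 before), and 4 of the 28 genes were higher and 4 lower, with a median of -0.06 over the 28. This comparison uses the same 4 peritoneal TCL1-192 arrays as the tissue comparison, so their values are given side by side and neither stands as support for the other.

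Ndrg1 had the largest difference of the group. Wild type levels were 6.75 and 6.20, against 9.36 to 10.46 in TCL1-192 peritoneum. It was 11.5-fold higher (3.52 ± 0.29, adjusted p = 0.000227) and stayed called in all 19 alternatives, at 2.51 to 4.01. TCL1-192 spleen cells, at 9.02 to 9.66, also lay above both wild type arrays. Eno2 was undetected in wild type (5.19 and 5.15) and detected on 3 of 4 peritoneal (7.18, 6.74, 7.33 and, undetected, 6.21) and all 4 spleen arrays of TCL1-192 (7.38, 7.17, 6.80 and 7.58). With the wild type side set at the lowest detected signal, Eno2 was 2.53-fold higher in TCL1-192 peritoneum (adjusted p = 0.0137). The TCL1-192 mean includes the undetected level of 6.21, so this fold is not a strict lower bound. Eno2 passed the detection filter through TCL1-192 arrays only, so its count among the higher genes is not independent of the filter.

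The remaining glycolytic calls were smaller. Aldoc was 3.02-fold higher (1.59 ± 0.23, adjusted p = 0.00309), from 6.59 and 6.53 in wild type, and was called in all 19 alternatives. Pgk1 was 2.02-fold higher (1.01 ± 0.18, adjusted p = 0.0068), from 10.36 and 10.07. Pgam1 (0.98 ± 0.18), Tpi1 (0.96 ± 0.21), Pdk1 (0.82 ± 0.17) and Pkm2 (0.74 ± 0.18) were higher with groups that did not overlap. Except for Aldoc, these calls ended under median centring, with Pgk1 at adjusted p = 0.189, Pgam1 at 0.416, Tpi1 at 0.125, Pdk1 at 0.571 and Pkm2 at 0.369. Other Tpi1 probes gave 0.37 ± 0.33 and 1.11 ± 0.19, a second Pgam1 probe 0.47 ± 0.29 and a second Pkm2 probe 1.15 ± 0.18. Ldha was not called (0.50 ± 0.19, adjusted p = 0.0948), from 12.64 and 12.72 in wild type, below all 4 leukaemic peritoneal levels. Ankrd37 was 2.64-fold higher (1.40 ± 0.34, adjusted p = 0.0217), from 10.24 and 10.12, and its call ended without PtC+ peritoneal replicate 1 (adjusted p = 0.0503) or replicate 2 (0.0704).

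Slc2a1, a well known HIF target, was lower in TCL1-192 than in wild type. It lay at 11.35 and 11.40 in wild type, above 9.98 to 10.77 in TCL1-192 peritoneum, a difference of -1.06 ± 0.18 (2.08-fold lower, adjusted p = 0.00585, or 0.0916 within PtC- arrays alone). Adm lay at 8.77 (PtC+) and 6.86 (PtC-) in wild type and was 4.42-fold lower in TCL1-192 (-2.15 ± 0.32, adjusted p = 0.00353), a call that ended within PtC- arrays alone (adjusted p = 0.123). P4ha2, another collagen prolyl hydroxylase, was at 5.93 and 6.20 in wild type and undetected on all 4 TCL1-192 peritoneal arrays. It was at least 1.16-fold lower there (adjusted p = 0.00691). P4ha2 passed the detection filter through wild type and young TCL1 arrays only, so its count among the lower genes is not independent of the filter. Without the filter on dim probes, another probe stood for P4ha2, at a difference of -0.08 (adjusted p = 0.901). Hif1a was detected in wild type (6.46 and 6.70), and its difference of -1.07 ± 0.34 missed the threshold (adjusted p = 0.0573). Ddit4 (10.59 and 10.72 in wild type) and Slc2a3 lay within the range of TCL1-192 peritoneum, at differences of -0.07 ± 0.22 and -0.02 ± 0.18. Gapdh, Pfkl and Bnip3l, none of them called, turned direction under median centring.

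Other markers moved in this comparison too: 3 of 4 tested erythroid markers were higher in TCL1-192, led by Hbb-b1 at 7.64 ± 0.25, 9 of the proliferation markers were higher, 7 of 16 macrophage markers were lower and 2, Cd68 and Arg1, higher, and 4 of 5 mast cell markers were lower. Of T cell markers Cd3e, Cd3g and Thy1 were lower, and Dcn of stroma was higher (2.69 ± 0.41). Of 5 tested B cell markers, Ms4a1 was lower (-0.95 ± 0.25) and none was higher. Their part in the result was not tested. Within PtC+ arrays alone 7 of the 28 genes were called (5 higher) and within PtC- arrays alone 3 (2 higher), beside 16.8% and 9.39% of all genes. Aldoc and Ndrg1 were called in both classes. Without the array that stood apart 15 were called (11 higher), beside 32.5% of all genes.

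Against young TCL1 peritoneal cells, 10 of the 28 genes were higher in TCL1-192 and 1 was lower, shares of 35.7% and 3.57% against 7.94% and 11.7% of all genes (any call 39.3% against 19.7%). The median was 0.46, and 0.01 for all genes. Groups did not overlap for 12 genes upward and 3 downward, against 15.4% and 17.7% of all genes. Again the arrays of TCL1-192 are shared. The genes that were higher were Aldoc, Tpi1, Pgk1, Pgam1, Eno2, Pkm2, Ldha, Pdk1, Ddit4 and Ndrg1. With median centring the median of all genes moved to -0.25, all genes split into 346 higher and 1882 lower (1047 and 1547 before), and 3 of the 28 genes were higher and 2 lower.

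Ndrg1 lay at 8.69 (PtC+) and 6.78 (PtC-) in young TCL1 and was 4.80-fold higher in TCL1-192 (2.26 ± 0.29, adjusted p = 0.00249). Within PtC+ arrays the difference was 1.09 and not called (adjusted p = 0.121). Ddit4 lay at 9.01 and 9.05 in young TCL1, below every other peritoneal array, and was 2.93-fold higher in TCL1-192 (1.55 ± 0.22, adjusted p = 0.00371). Eno2 was undetected in young TCL1 (5.09 and 5.02) and 2.59-fold higher in TCL1-192 (adjusted p = 0.0146). The young TCL1 side was set at the lowest detected signal, and this is again not a strict lower bound. It had passed the detection filter through TCL1-192 arrays only, so this count is not independent of the filter either.

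Pgam1, at 7.93 and 8.01 in young TCL1, was 2.21-fold higher in TCL1-192 (1.14 ± 0.18, adjusted p = 0.00644), and Pgk1, at 10.28 and 10.01, 2.12-fold higher (1.08 ± 0.18, adjusted p = 0.0071). Aldoc, at 6.96 and 7.05, was 2.22-fold higher (1.15 ± 0.23, adjusted p = 0.0156). Pdk1 was higher by 0.99 ± 0.17, Tpi1 by 0.84 ± 0.21, Pkm2 by 0.79 ± 0.18 and Ldha, at 12.69 and 12.21 in young TCL1, by 0.73 ± 0.19. None of these groups overlapped. All 7 of these calls ended under median centring, at adjusted p of 0.149 to 0.38. Other Tpi1 probes gave 0.38 ± 0.33 and 1.03 ± 0.19, a second Pgam1 probe 0.55 ± 0.29 and a second Pkm2 probe 1.25 ± 0.18. Leaving out 1 array ended the Ldha call for the PtC+ peritoneal array of either replicate or any spleen array (adjusted p of 0.0635 to 0.0886), the Tpi1 call for the PtC+ peritoneal array of replicate 1 or any spleen array (0.0589 to 0.0668), and the Pkm2 call for that peritoneal array (0.052) or either PtC- spleen array (0.0531).

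Adm was the gene that was lower, from 8.998 and 8.31 in young TCL1, by 7.90-fold (-2.98 ± 0.32, adjusted p = 0.00108), and it was called in all 19 alternatives. Slc2a1, at 11.13 and 10.50 in young TCL1, overlapped TCL1-192 and was not called (-0.50 ± 0.18, adjusted p = 0.0985). Hif1a, at 6.64 and 6.43, was not called either (-1.02 ± 0.34, adjusted p = 0.0798). Erythroid markers were higher in TCL1-192 (3 of 4), as were 9 proliferation markers, and of 16 macrophage markers 2 were higher and 1 lower. Mast cell markers were lower (4 of 5, led by Mcpt4 at -4.30 ± 0.16). Cd3g and Thy1 of the T cell list were lower and Lck higher. Nkg7 of NK cells was lower, and Dcn of stroma was higher (2.56 ± 0.41). Of 5 tested B cell markers, Ms4a1 was lower (-0.92 ± 0.25) and none was higher. Their part in the result was not tested. Without the array that stood apart 13 of the 28 genes were called (12 higher), beside 24.4% of all genes. Within PtC+ arrays alone 8 were called (6 higher) and within PtC- arrays alone 5 (4 higher), beside 16.1% and 11.2% of all genes, and Ddit4 and Adm were called in both classes.

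Between young TCL1 and wild type (2 against 2 arrays), the spread comes from the TCL1-192 replicates alone. Of the 28 genes 1 was called, Ddit4, which was 3.08-fold lower in young TCL1 (-1.62 ± 0.25, adjusted p = 0.0347), a share of 3.57% against 0.917% of all genes called lower and 1.52% in either direction. Its levels of 9.01 and 9.05 in young TCL1 and 10.59 and 10.72 in wild type did not overlap, with close values in both PtC classes. Downward, 8 genes did not overlap and upward 4, against 17.4% and 18.9% of all genes. The call ended in 9 of 19 alternatives: under median centring (adjusted p = 0.0784), within either PtC class, and without either PtC+ peritoneal (0.064) or any spleen array of TCL1-192 (0.0884). Ndrg1 differed by 1.26 ± 0.34 and was not called (adjusted p = 0.17), with the larger gap between the PtC+ arrays (8.69 against 6.75 in wild type; PtC- 6.78 against 6.20). Eno1 (-0.76 ± 0.25), Slc2a1 (-0.56 ± 0.21) and Ankrd37 (0.63 ± 0.39) were not called. Of the cell markers, Emr1 of macrophages was lower in young TCL1 (-1.71 ± 0.29). The erythroid Hbb-b1 (2.95 ± 0.29) and Hba-a1 (2.88 ± 0.49) were higher. Their part in the result was not tested.

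The last comparison was by PtC binding. Within TCL1-192, limma called 0 of the 28 genes between PtC+ and PtC- cells over both tissues, and 0 for the difference of this contrast between spleen and peritoneum (0% of all genes in both). At an unadjusted p under 0.05 the count was 1 of 28 in each, Pfkfb3, beside 1129 and 1520 of the 13190 genes. The lowest adjusted p among the 28 genes was 0.58 and 0.409, and differences over both tissues ran from -0.53 (Pfkfb3, SE 0.20) to 0.27 (Adm, SE 0.26). Gpi1 was the 1 gene whose PtC+ levels (11.87 to 12.37) all lay below its PtC- levels (12.41 to 12.68), as for 1.06% of all genes, with a difference of -0.29 ± 0.15 (adjusted p = 0.588). Leaving out the PtC- peritoneal array of replicate 1, which leaves the array that stood apart alone in its group, gave 3 calls in each, beside 1533 (11.6%) and 1644 (12.5%) of all genes. Over both tissues P4ha1 (0.83 ± 0.17, adjusted p = 0.016) and Pfkp (0.75 ± 0.16, 0.0185) were then higher in PtC+ cells and Pfkfb3 lower (-0.69 ± 0.18, 0.0349), and the same 3 genes made up the calls in the difference between tissues. All 3 had their extreme PtC- level on the array that stood apart, with P4ha1 and Pfkp undetected there (5.28 and 5.66).

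In the unreplicated pairs, which allow no test, differences of at least 1 log2 unit between PtC+ and PtC- were found for Adm in wild type (1.91) and for Ndrg1 (1.91) and Hk1 (1.10) in young TCL1. Such differences were found for 1.27% (higher) and 1.44% (lower) of all genes in the wild type pair and for 4.31% and 3.99% in the young TCL1 pair.

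Replicates of these genes were closest in spleen. The median gap between replicates was 0.17 in PtC- spleen, 0.21 in PtC+ spleen, 0.33 in PtC- peritoneum and 0.43 in PtC+ peritoneum, and over all genes 0.18, 0.22, 0.37 and 0.26 in the same order. Gaps over 1 log2 unit occurred for 5 genes in PtC- peritoneum (Hk1, Pfkp, Eno2, Egln1 and P4ha1) and 1 in PtC+ spleen (Ankrd37). Of the 28 genes, 16 (57.1%) had their highest group mean in TCL1-192 peritoneum, 8 in each PtC class, as did 33.4% of all genes. The lowest group mean was in TCL1-192 spleen for 13 (46.4%), 10 of them in PtC+ cells, and for 20.9% of all genes.

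The 6 genes on the array that failed the detection filter include classical hypoxia markers. Vegfa, the vascular growth factor, had 3 probes detected on no array, at levels of 4.59 to 5.57. Bnip3, the paralogue of Bnip3l in mitophagy, Car9, a cell surface carbonic anhydrase, Ero1l, an oxidase of the endoplasmic reticulum (now Ero1a), and Higd1a, a mitochondrial protein, were also detected on none. Egln3, the prolyl hydroxylase most readily induced by HIF, had 1 of 3 probes detected on 1 array, at levels of 4.58 to 5.503. At these levels no difference was detectable.

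Related genes outside the group were followed through 5 lists. In the tissue comparison, of 24 other hypoxia-induced genes tested 7 were lower and 2 higher (list median -0.29). Pygl, liver glycogen phosphorylase (-2.23 ± 0.13), Angptl4, an inhibitor of lipoprotein lipase (-2.19 ± 0.13), and Ccng2, an atypical cyclin that slows the cell cycle (-1.40 ± 0.21), were lower, while Bhlhb3 (now Bhlhe41), a repressor of transcription, was higher (1.99 ± 0.32). Of 9 other glycolysis genes 2 were lower, the muscle-type phosphofructokinase Pfkm (-1.89 ± 0.22) and the transporter Slc2a6 (-1.34 ± 0.19), and none higher. Of 10 HIF subunits and oxygen sensing genes 3 were higher and none lower: Siah2, a ubiquitin ligase that degrades prolyl hydroxylases (1.71 ± 0.17), Cited2, which competes with HIF for its coactivators (1.35 ± 0.15), and the coactivator Ep300 (0.93 ± 0.23). Of the pyruvate dehydrogenase complex 1 of 7 was lower (Pdha1, -0.66 ± 0.14), and of the pentose phosphate pathway 1 of 7 (Pgd, -0.41 ± 0.12). The shares of all genes, 11.1% lower and 15.5% higher, are the background to these counts.

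Against wild type, 5 of the 24 other hypoxia-induced genes were higher in TCL1-192 peritoneum and 2 lower. Among all genes 11.8% were higher and 15.6% lower, which is the background to the counts against wild type. Angptl4 was higher by 3.34 ± 0.15 and Ccng2 by 1.53 ± 0.26, whereas Pygl was lower (-2.44 ± 0.16). Among other glycolysis genes Eno3, the muscle enolase (3.44 ± 0.18), and Pfkm (1.55 ± 0.26) were higher, and Pfkfb4, a relative of Pfkfb3 that is also in the hypoxia list (-0.99 ± 0.16), Slc2a6 (-0.77 ± 0.23) and Hk3 (-0.72 ± 0.18) lower. In the oxygen sensing list none was higher, and Hif1an, which hydroxylates HIF to block its coactivators (-1.10 ± 0.19), and Ep300 (-0.97 ± 0.29) were lower. In the pyruvate dehydrogenase list 2 of 7 were higher (Pdha1, 0.75 ± 0.17, and Ppm2c, now Pdp1, 0.61 ± 0.18), and in the pentose phosphate list 2 of 7 were higher (Taldo1, 0.52 ± 0.15, and Pgd, 0.49 ± 0.14) and 2 lower (G6pdx, -0.72 ± 0.15, and Rpia, -0.67 ± 0.18).

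Against young TCL1, the counts higher and lower were 4 and 2 of 24 in the hypoxia-induced list, 2 and 1 of 9 in other glycolysis, 1 and 0 of 7 for pyruvate dehydrogenase, 2 and 0 of 7 for the pentose phosphate pathway and 0 and 0 of 10 for oxygen sensing. Among all genes 7.94% were higher and 11.7% lower, which is the background to these counts. Angptl4 (3.36 ± 0.15), Eno3 (3.16 ± 0.18), Pfkm (1.95 ± 0.26) and Adfp (now Plin2), which coats lipid droplets (1.31 ± 0.35), were higher, and Pygl (-1.60 ± 0.16) and Pfkfb4 (-1.10 ± 0.16) lower. In the comparison of young TCL1 with wild type and in both PtC comparisons no gene of these 5 lists was called.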

How the data were processed

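Gene expression was measured on 12 Illumina mouse bead arrays. The deposited non-normalized table gives, per the file headers, a signal intensity and a detection p-value for each of 45281 probes and each array. A second deposited table holds intensity values that the authors had normalized, with the tool not given in the sources used here, and served as an alternative. Per the labels' protocols, RNA was extracted with Trizol and cleaned with DNase treatment. No genome build was needed for the arrays.

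Calculations used R 4.3.3 and limma 3.58.1. Background was corrected by neqc (offset 16), which infers the control probes from the detection p-values, followed by quantile normalization and log2. Probes with a detection p-value under 0.05 on at least 2 arrays were kept (18100 probes), and each symbol was represented by its kept probe with the highest mean, leaving 13190 genes. A linear model with 1 mean for each of 8 groups (4 residual degrees of freedom) was fitted to the 12 arrays, and variances were moderated by empirical Bayes (prior SD 0.244 on 3.13 degrees of freedom). Tests were two-sided, adjusted by Benjamini-Hochberg over all genes of a comparison, with a threshold of 0.05. Differences average both PtC classes on each side. A gene undetected on every array of a side has a bound in place of a fold, with that side at the lowest detected signal of each array. The mean of the other side includes any undetected level, as for Eno2, and the bound is then approximate. The steps were tested on simulated data with known changes.

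The genes, the related lists and the marker lists were chosen with earlier results of these data known. Values by array are given for genes called with a log2 difference of at least 1 and for Hif1a, Egln3, Slc2a1, Ldha, Pdk1, Ddit4 and Vegfa; of each related list, up to the 4 called genes with the largest differences are named. Alternatives were another background correction, median centring, the authors' table, other detection filters, the mean of probes, an intensity trend, array weights, a replicate block, each PtC class alone and leaving out each replicate.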

Additional observations from a re-analysis of the deposited data

How the results depend on the processing

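Of 721 recomputed values for 38 called results, 617 kept their call, 104 lost it and 0 reversed. In spleen against peritoneum the 14 called genes became 9 with median centring, 6 on PtC- arrays only and 11 to 18 with 1 replicate array left out. In TCL1-192 against wild type the 12 became 7 on PtC+ arrays only, 3 on PtC- arrays only and 11 to 17 with 1 left out. In TCL1-192 against young TCL1 the 11 became 5 with median centring, 5 on PtC- arrays only and 8 to 15 with 1 left out. In young TCL1 against wild type the 1 became 0 with median centring and on arrays of either PtC class only, and 0 to 2 with 1 left out. The PtC comparison and its difference between tissues gave 0 to 3 with 1 left out, in both. Over all genes, the 3516 calls between tissues became 863 on PtC- arrays only and 1817 to 5953 with 1 array left out. The 3613 against wild type became 2211 on PtC+ arrays only, 1239 on PtC- arrays only and up to 6048 with 1 left out, and the 2594 against young TCL1 became 1472 on PtC- arrays only and 1640 to 5328. The 201 between young TCL1 and wild type became 125 with median centring, 411 in the authors' table, 83 with detection on at least 6 arrays, 355 with an intensity trend, 368 with array weights, 57 and 116 on PtC+ and PtC- arrays only and 59 to 504 with 1 left out. The upper values came without the PtC- peritoneal array of replicate 1, and for 504 also without replicate 2. With the replicate number as a block, the counts in the 6 comparisons, in the order of the text, were 14, 13, 11, 1, 0 and 0. Deviations of same-numbered arrays correlated at 0.05 to 0.26 between groups. Between PtC+ and PtC- cells of a tissue the values were 0.21 in peritoneum and 0.26 in spleen. Not every pair of groups was above 0.1, so the numbers were not taken as a pairing over all groups. That rule cannot exclude a pairing within a tissue, where PtC+ and PtC- arrays of the same number may share a sample. The cause of these shifts was not tested. Where 1 PtC class was taken alone, the model still held all 12 arrays and only the groups compared changed. Dim probes (Hif1a, Egln1, P4ha2, Slc16a3, Pfkfb3) limit what can be seen.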
